A study of Homo sapiens with 10 samples.

Results

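PAX3, PAX6, TBX5, TBX3, GATA4, GATA6 and NKX2-5 encode transcription factors that assign cells to a lineage in the embryo. The 7 genes were taken by name, each at a stated interval of the hg19 genome, with earlier results of these data known. They cover 293 of the 2798557 bins of 1 kb in which read depth was analysed, and 1378 further bins within 100 kb on either side of each gene served as its local background. The study profiled γ-H2AX by CUT&RUN, in which a nuclease bound to an antibody cuts out the chromatin that the antibody marks so that it can be sequenced, and its design text names the recognition of DNA double-strand breaks in different cell types as the question. K562 is a human erythroleukaemia line and HepG2 a human hepatocellular carcinoma line.

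The γ-H2AX libraries came from K562 cells 1 h (n = 2) and 24 h (n = 2) after 6 Gy from a cobalt source and from HepG2 cells 1 h after the same dose (n = 1). H3K27me3 was profiled in K562 cells 1 h after 6 Gy (n = 1). Untreated K562 (n = 2) and untreated HepG2 (n = 2) gave the libraries titled H2AX, whose antibody label names histone H4, so they are used as untreated chromatin whichever histone was bound. No γ-H2AX from unirradiated cells and no H3K27me3 from HepG2 was analysed here, and irradiation and antibody therefore cannot be told apart in any comparison of γ-H2AX with H2AX. The labels do not say that replicates were separate cultures, so the spread behind every p-value may be technical only.

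Cells phosphorylate the histone variant H2AX around double-strand breaks, and the phosphorylated form, γ-H2AX, spreads over the chromatin beside a break. H3K27me3 is the mark laid down by Polycomb complexes, which keep developmental regulators silent in cells of other lineages and are often found at CpG-rich start sites in mammals. GATA4, GATA6, NKX2-5 and TBX5 act together in heart development, GATA4 and GATA6 also in endoderm and liver, TBX3 in limb and mammary gland, PAX3 in neural crest and muscle precursors, and PAX6 in eye and brain. No RNA was measured, so whether any of the 7 genes was transcribed in these cells is not known from these data.

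All values are relative levels, that is the mean depth per base over a region divided by the mean of the library, so that 1 is the library average. Mean depth ran from 0.326 per base in replicate 1 of the K562 24 h group to 1.78 in replicate 2 of the K562 1 h group. In that 24 h replicate 1, 35.7% of all bins read 0, against 2.69% in replicate 2. The zeros took 84% of the bins downstream of GATA4, 39.4% of those of GATA6 and 23.5% of those of PAX6. They took 5.05% at PAX3, 3.57% at GATA4 and 0% at TBX5, TBX3 and NKX2-5. Earlier results of these data found this replicate to read 0 wherever the 1 h tracks are high, so it is not independent of them. It was therefore left out of the main fits, and is given as levels and in alternative fits. Over the part of chromosome 9 that K562 has lost, levels were at most 0.0042 in the K562 libraries and 0.936 to 1.02 in the HepG2 libraries. Low bins fell on multiples of 60 bp in 61.5% to 63.7% of cases in the K562 1 h γ-H2AX and H3K27me3 libraries, against 0.731% to 0.851% in the other 7 libraries, where 59.0% to 65.3% fell on multiples of 41 bp. This step length went with the K562 1 h group, and the effects of the 2 cannot be told apart.

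H3K27me3 was higher within 2 kb of the start site than over the rest of the body at PAX3, PAX6, TBX5 and GATA6. It was also slightly higher there at GATA4 (6.63 against 6.28) and higher at NKX2-5 (8.41 against 7.38), where the rest of the body is only 1 bin. At TBX3 it was lower there (4.42 against 4.83). CpG-rich starts are where Polycomb is often found, and a link of CpG content to these levels was not tested. The promoters printed are those of 4 of the 7 genes, from the RefSeq promoter table of GRCh38.p14. Each runs 5′ to 3′ on the strand of the gene, from 250 bases before to 50 after the start, with every CG dinucleotide in capitals; CG reads the same on both strands and cannot overlap itself. PAX3 lies on the minus strand at chr2:222298949-222299248, PAX6 on the minus strand at chr11:31817912-31818211, TBX5 on the minus strand at chr12:114408393-114408692 and GATA6 on the plus strand at chr18:22169339-22169638. For PAX6, with 9 entries, and TBX5, with 2 entries, the outermost start is shown.
PAX3: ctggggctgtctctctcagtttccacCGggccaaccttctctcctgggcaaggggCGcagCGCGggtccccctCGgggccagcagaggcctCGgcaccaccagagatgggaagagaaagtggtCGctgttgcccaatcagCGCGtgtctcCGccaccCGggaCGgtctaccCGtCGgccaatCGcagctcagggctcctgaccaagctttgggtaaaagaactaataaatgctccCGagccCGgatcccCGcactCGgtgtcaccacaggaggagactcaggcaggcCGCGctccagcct
PAX6: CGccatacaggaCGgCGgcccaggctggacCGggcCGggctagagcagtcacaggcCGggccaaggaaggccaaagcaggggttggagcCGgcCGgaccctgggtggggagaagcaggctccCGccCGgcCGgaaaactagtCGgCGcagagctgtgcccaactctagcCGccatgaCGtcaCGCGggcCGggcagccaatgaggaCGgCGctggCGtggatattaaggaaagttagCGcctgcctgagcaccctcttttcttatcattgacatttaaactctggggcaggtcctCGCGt
TBX5: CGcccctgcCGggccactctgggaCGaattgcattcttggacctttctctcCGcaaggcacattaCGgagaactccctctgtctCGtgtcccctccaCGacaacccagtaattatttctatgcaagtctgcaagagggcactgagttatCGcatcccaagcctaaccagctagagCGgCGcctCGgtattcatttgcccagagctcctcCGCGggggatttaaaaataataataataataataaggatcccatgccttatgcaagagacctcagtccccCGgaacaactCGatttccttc
GATA6: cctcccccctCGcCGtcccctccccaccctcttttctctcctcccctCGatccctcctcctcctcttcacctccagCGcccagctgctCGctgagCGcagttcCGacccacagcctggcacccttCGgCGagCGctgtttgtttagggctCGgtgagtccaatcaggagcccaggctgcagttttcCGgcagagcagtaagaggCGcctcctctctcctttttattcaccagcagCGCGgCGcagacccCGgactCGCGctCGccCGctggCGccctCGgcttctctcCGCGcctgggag
The PAX3 stretch held 21 CG, and 39.5% of the 35116 promoters in the table held as many. PAX6 held 24 (33.9% of promoters held as many), TBX5 held 15 (48.9%) and GATA6 held 25 (32.0%), against a median of 14. A CG count is a description of the letters in this window and says nothing of which protein was there. TBX3, GATA4 and NKX2-5 are named only.

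Averaged over the gene body, H3K27me3 was above the library mean at the cardiac and limb regulators and under it at the PAX genes. Its relative level over the gene body was 7.35 at NKX2-5, a homeobox factor of the heart, 6.31 at GATA4, a zinc-finger factor of heart and endoderm, and 4.74 at TBX3, a T-box repressor. TBX5, the T-box factor of heart and forelimb, had 3.24 and GATA6, a zinc-finger factor of endoderm, had 2.14, while PAX6 had 0.853 and PAX3 had 0.492. The first 5 stood above the library mean, as 28.1% of all 10-kb windows did, and the median window had 0.202. NKX2-5 exceeded 99.0% of windows and GATA4 98.1%, against 69.5% for PAX6 and 61.8% for PAX3. This order rests on 1 library, so no spread can be put on it. The levels were not divided by untreated H2AX, whose K562 mean was 0.518 at PAX3, 1.01 at PAX6 and 1.53 at GATA6. Read depth also follows DNA copy number, so the order could differ on that scale.

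The mark was not spread evenly along the genes. Within 2 kb of the start site H3K27me3 was 3.45 at PAX3, against 0.441 over the rest of its body, and 3.03 at PAX6, against 0.676 over the rest. At GATA6 the start site had 5.20 and the rest of the body 2.12, at TBX5 7.12 and 3.07, while at GATA4 (6.63 and 6.28) and TBX3 (4.42 and 4.83) the level was nearly even. All 7 start sites thus stood above the library mean, the PAX genes included. The unbroken run of 10-kb windows above the library mean that held the start site measured 390 kb at GATA4, 250 kb at TBX3, 210 kb at TBX5, 140 kb at NKX2-5, 100 kb at PAX6, 80 kb at GATA6 and 30 kb at PAX3. At PAX6 this run reached from the start of the gene away from its body, so that the upstream flank had 2.64 and the downstream flank, on the side of ELP4, had 0.132.

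**Figure D1:**
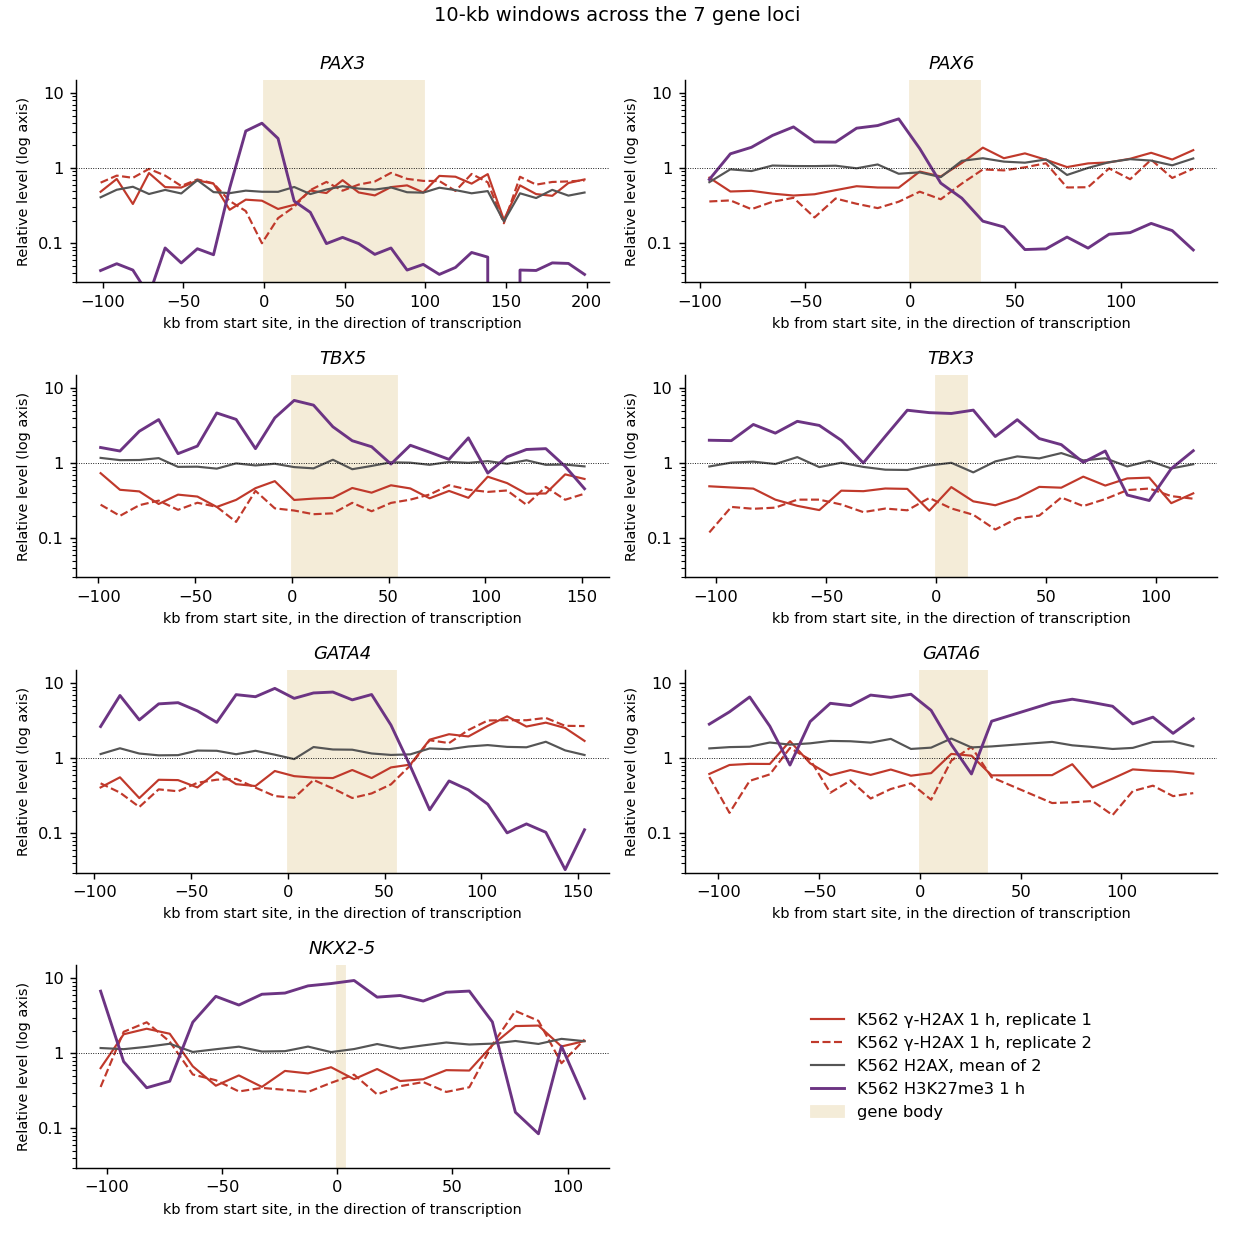
Relative levels (log axis) in 10-kb windows across each gene and 100 kb on either side, with distance in kb from the start site in the direction of transcription; shading marks the gene body, red lines the K562 γ-H2AX 1 h replicates, grey the mean of the 2 K562 H2AX libraries and purple the H3K27me3 library, whose values under 0.03 fall off the axis. Both red lines lie under the grey line across TBX5 and TBX3, and they cross above it downstream of GATA4 and on both sides of NKX2-5, where the purple line drops under 1.

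One hour after irradiation γ-H2AX in K562 was lower than H2AX over 5 of the 7 genes, those with H3K27me3 above the library mean over the body, and over neither PAX gene as a whole. TBX5 had relative levels of 0.386 and 0.25 in the 1 h libraries, against 0.926 and 0.971 in the H2AX libraries. TBX3 had 0.418 and 0.253 at 1 h and 1.04 and 0.924 in untreated H2AX. Both 1 h libraries thus lay under both H2AX libraries at the T-box genes, which are neighbours on chromosome 12. The share of all regions separated in this way was not counted, and 36.6% of regions were called lower by limma. GATA4 had 0.598 and 0.395 at 1 h and 1.28 and 1.19 in untreated H2AX. GATA6 had 0.899 and 0.844 at 1 h and 1.49 and 1.57 in untreated H2AX. NKX2-5, read in only 3 bins, had 0.195 and 0.294 at 1 h and 0.930 and 0.843 in untreated H2AX. In these genes too the groups stayed apart, with the smallest ratio between the nearest libraries at GATA6. PAX3 had 0.474 and 0.549 at 1 h and 0.498 and 0.538 in untreated H2AX, and the groups overlapped. PAX6 had 0.983 and 0.540 at 1 h and 1.01 in each library of untreated H2AX, where the 1 h replicates stood farther apart than those of any other member and replicate 1 was close to H2AX.

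On the log2(relative level + 0.05) scale, with limma and Benjamini-Hochberg adjustment over all 274243 regions tested, the change at 1 h was −1.69 (SE 0.28, adjusted p = 0.00034) at NKX2-5, −1.47 (SE 0.22, adjusted p = 0.00022) at TBX5 and −1.45 (SE 0.23, adjusted p = 0.00029) at TBX3. It was −1.26 (SE 0.21, adjusted p = 0.00040) at GATA4 and −0.78 (SE 0.18, adjusted p = 0.0029) at GATA6. PAX6 missed the threshold at −0.44 (SE 0.25, adjusted p = 0.14), and PAX3 stood at −0.02 (SE 0.20, adjusted p = 0.94). PAX6 depended on the 1 h replicate: without replicate 1 its change was −0.85 (limma, adjusted p = 0.00022), and without replicate 2 it was −0.04 (adjusted p = 0.89). The 5 of 7 genes called lower stand beside 36.6% of regions called lower and 55.3% called in either direction, and the 7 genes had a median of −1.26, against −0.05 over all regions tested. With the 24 h replicate 1 in the fit, whose spread then enters the pooled error, no gene and no region was called by limma, at a lowest adjusted p of 0.060 among the 7 genes, while 84101 regions kept an unadjusted p under 0.05.

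**Figure D2:**
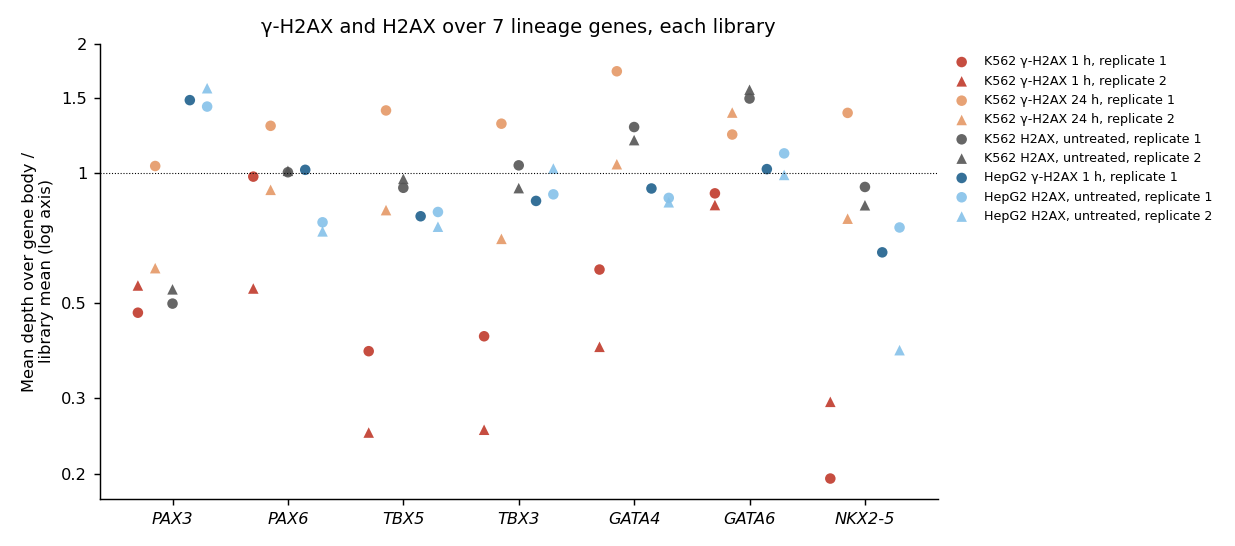
Relative level (log axis) over the body of each gene in each γ-H2AX and H2AX library, circles for replicate 1 and triangles for replicate 2. The K562 1 h points (red) lie under the K562 H2AX points (grey) at TBX5, TBX3, GATA4, GATA6 and NKX2-5 and among them at PAX3, where the HepG2 points (blue) are all above 1.4.

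The 1 h change was not the same along every gene. All 6 windows of 10 kb touching TBX5 were called lower by limma, as were all 3 at TBX3, all 6 at GATA4 and both at NKX2-5, with log2 changes between −1.84 and −0.86. At GATA6, 4 of 5 windows were called lower. The fifth, chr18:19770001-19780000 toward the end of the body, had 1.08 and 1.42 at 1 h, against 1.30 and 1.49 in untreated H2AX, a log2 change of −0.16. H3K27me3 in that window was 0.618, against 4.34 in the window after the start site, chr18:19750001-19760000, where the change was −1.59.

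At PAX3, 3 of 11 windows were called lower, and these were the 3 at its start-site end. The window over the start site, chr2:223160001-223170000, had 0.367 and 0.10 at 1 h, against 0.505 and 0.461 in untreated H2AX, a log2 change of −1.09 (limma, SE 0.35, adjusted p = 0.018), with H3K27me3 at 3.95. Farther into the gene, chr2:223120001-223130000 had 0.465 and 0.653 at 1 h, against 0.477 and 0.559 in untreated H2AX, with H3K27me3 at 0.099. Both 1 h libraries were therefore low at the PAX3 start and level with H2AX within the gene. At PAX6 none of 4 windows was called, the largest change being −0.52 (limma, SE 0.25, adjusted p = 0.097) at chr11:31810001-31820000. The upstream flank of PAX6, under the H3K27me3 run, had 0.524 and 0.336 at 1 h, against 0.959 and 0.991 in untreated H2AX, a log2 change of −1.12 (limma, adjusted p = 0.00097). Its downstream flank had 1.38 and 0.888 at 1 h, against 1.13 and 1.22 in untreated H2AX, and the groups overlapped.

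Each gene was also compared with its flanks, and the outcome depended on which flank was used. Body over flanks, the log2 level of the gene minus that of its flanks, did not pass the test at TBX5 (−0.21, limma adjusted p = 0.48), TBX3 (−0.04, adjusted p = 0.92), PAX3 (−0.30, adjusted p = 0.27) or PAX6 (0.02, adjusted p = 0.95). The PAX6 value averaged unlike flanks: it was 0.68 against the upstream flank alone (limma, adjusted p = 0.010) and −0.36 against the downstream flank alone (adjusted p = 0.19). The flanks of the T-box genes were themselves lower at 1 h, with log2 changes of −1.46 upstream and −1.08 downstream of TBX5 and of −1.44 and −1.40 at TBX3. GATA4 fell against its flanks by 1.41 on the log2 scale (limma, SE 0.19, adjusted p = 6.0e-05) and NKX2-5 by 1.36 (SE 0.23, adjusted p = 0.00039), while GATA6 rose by 0.59 against its own (SE 0.19, adjusted p = 0.035). Of all windows compared in the same way, 15.1% were called lower than their flanks, 7.39% higher and 22.5% in either direction.

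At GATA4 the flanks moved in opposite directions. The 100 kb downstream, which holds NEIL2, a DNA glycosylase, FDFT1, a cholesterol synthesis enzyme, and CTSB, a lysosomal protease, had 2.27 and 2.46 at 1 h, against 1.37 and 1.34 in untreated H2AX. These were the highest 1 h levels of any member or flank, the groups did not overlap, and the log2 change was 0.78 (limma, adjusted p = 0.0035). The upstream 100 kb had 0.499 and 0.402 at 1 h, against 1.23 and 1.13 in untreated H2AX, as low as the gene itself. Against the upstream flank alone the change of GATA4 was 0.04 (limma, adjusted p = 0.92), and against the downstream flank alone −2.04 (adjusted p = 2.6e-06). H3K27me3 also differed between the sides, with 6.31 over the gene, 5.36 upstream and 0.308 downstream.

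NKX2-5 had raised stretches on both sides, farther out. In the window chr5:172580001-172590000, on the side of BNIP1 and CREBRF, levels were 2.31 and 3.67 at 1 h, against 1.36 and 1.56 in untreated H2AX, with H3K27me3 at 0.164. In chr5:172740001-172750000, on the side of STC2, levels were 2.13 and 2.59 at 1 h, against 1.2 and 1.24 in untreated H2AX, with H3K27me3 at 0.348. Between them lay the 140 kb run of H3K27me3, with a median of 0.562 and 0.359 in the 1 h libraries, 1.19 in the mean of H2AX and a median log2 change of −1.43. With flanks of 50 kb, which end inside that run, the body over flanks of NKX2-5 was −0.32 (limma, adjusted p = 0.52) in place of −1.36. At GATA6 the flanks were lower at 1 h, with log2 changes of −1.16 upstream and of −1.63 downstream, where 78 of 100 bins could be read. The call on GATA6 against its flanks was lost without H2AX replicate 1 (0.49, limma adjusted p = 0.28), without H2AX replicate 2 (0.68, adjusted p = 0.12) and without 1 h replicate 2 (0.30, adjusted p = 0.26). It was also lost with no filter on low windows (adjusted p = 0.081), with no variance trend (adjusted p = 0.055) and against the upstream flank alone (0.38, adjusted p = 0.16).

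**Figure D3:**
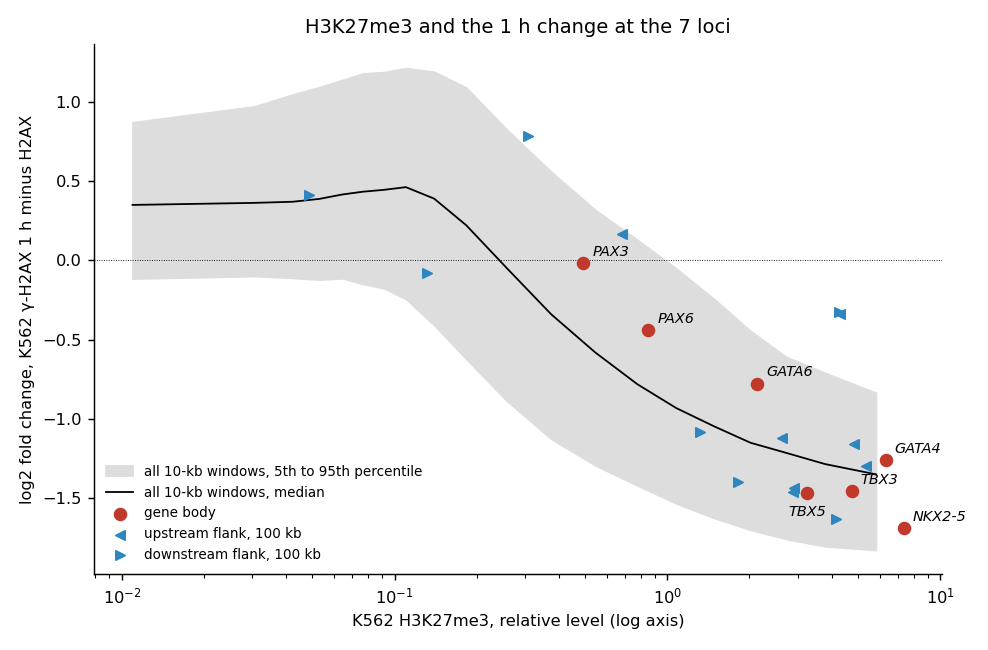
Log2 change of K562 γ-H2AX at 1 h over H2AX against the relative level of K562 H3K27me3 (log axis) for the 7 gene bodies (red circles) and their 100-kb flanks (blue triangles), with the median (line) and the 5th to 95th percentile (shading) of all 10-kb windows in 20 groups of like H3K27me3. The gene bodies run from PAX3 at the upper left to NKX2-5 at the lower right within the range of other windows, and both flanks of NKX2-5 and the upstream flank of PAX3 lie above it.

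Set beside windows of like H3K27me3, no gene body stood outside the middle 90% of changes. In groups of about 13711 windows each, TBX5 exceeded 28.5% of the windows with like H3K27me3, TBX3 35.6%, GATA4 61.8%, NKX2-5 12%, GATA6 83.7%, PAX6 75.7% and PAX3 85.7%. The flanks of NKX2-5, which mix windows of high and low H3K27me3, exceeded 98.8% upstream and 98.9% downstream, and the upstream flank of PAX3 exceeded 95.5%. Over the 1-kb bins of each locus, flanks included, Spearman's rho between H3K27me3 and the ratio of 1 h γ-H2AX to H2AX was −0.72 at GATA4 (n = 256 bins), −0.62 at NKX2-5, −0.55 at PAX6, −0.32 at GATA6, −0.28 at PAX3 and −0.22 at both T-box genes. With HepG2 γ-H2AX over HepG2 H2AX in place of the K562 ratio, rho was −0.17 to −0.01. These are descriptions: bins are not replicates, and the H3K27me3 library and the K562 1 h libraries share their 60-bp step and the irradiated line.

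At 24 h the same 5 genes were higher than at 1 h in the replicate that was tested. TBX5 had 0.822 in 24 h replicate 2, TBX3 0.704, GATA4 1.05, GATA6 1.39 and NKX2-5 0.785. Each lay above both 1 h libraries given above, a separation whose share over all regions was not counted. Against 1 h the log2 change was 1.52 at NKX2-5 (limma, SE 0.34, adjusted p = 0.0031), 1.27 at TBX5 (SE 0.27, adjusted p = 0.0024), 1.04 at GATA4 (SE 0.26, adjusted p = 0.0059), 1.00 at TBX3 (SE 0.28, adjusted p = 0.011) and 0.64 at GATA6 (SE 0.22, adjusted p = 0.031). PAX6 (0.31, adjusted p = 0.44) and PAX3 (0.22, adjusted p = 0.50) were not called. The 5 of 7 called higher stand beside 32.3% of regions called higher and 47.6% in either direction. Without 1 h replicate 1, PAX6 was called higher as well (0.71, limma adjusted p = 0.0072). GATA6 was not called with median-of-ratios scaling (0.49, limma adjusted p = 0.096) or with all 10 libraries (0.56, adjusted p = 0.074), where the other 4 were. In a fit of the 1 h and 24 h libraries alone none was called by limma, at a lowest adjusted p of 0.051. GATA4 rose by 1.46 against its flanks (limma, adjusted p = 0.00041) and NKX2-5 by 1.44 (adjusted p = 0.0018), beside 12.5% of windows called higher and 19.3% in either direction, while GATA6 stood at −0.59 (adjusted p = 0.094). Against the upstream flank alone GATA4 stood at −0.02 (limma, adjusted p = 0.97), with flanks of 50 kb NKX2-5 stood at 0.40 (adjusted p = 0.50), and PAX6 was called lower than its upstream flank alone (−0.86, adjusted p = 0.0094). By the same test, without 1 h replicate 1, GATA6 was called lower against its flanks (−0.88, adjusted p = 0.00044).

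Against H2AX the 24 h replicate 2 differed at none of the 7 genes by limma, also at an unadjusted p under 0.05, with log2 changes from −0.45 at TBX3 to 0.20 at PAX3. No region of the genome was called in this comparison either, 36641 having an unadjusted p under 0.05. The fit of the compared groups alone called 36989 regions, none of the 7 genes among them, and 24 h replicate 1 in place of replicate 2 gave 151711. The 24 h replicate 1 had higher levels than replicate 2 at 6 of the 7 genes, between 1.04 at PAX3 and 1.73 at GATA4, and 1.23 at GATA6. The share of all regions higher in replicate 1 was not counted. Over all windows the median log2 change against H2AX was 0.03 with replicate 2 and 0.34 with replicate 1. With it in place of replicate 2, PAX3 was called higher than H2AX, at 0.94 (limma, adjusted p = 0.0044), and against 1 h PAX3 (0.96, adjusted p = 0.0019) and PAX6 (0.78, adjusted p = 0.029) were called while GATA6 no longer was (0.48, adjusted p = 0.11). The sign against H2AX turned at PAX6, TBX5, TBX3, GATA4 and NKX2-5. The 24 h replicates thus do not give the same picture at these genes or over all windows. Both stood above both 1 h libraries at PAX3, TBX5, TBX3, GATA4, GATA6 and NKX2-5. Replicate 1, which read 0 where the 1 h tracks are high, is not independent of them, so it adds no separate observation of that order. The share of all regions ordered in this way was not counted. Over all windows the median log2 change of replicate 2 against 1 h was 0.25.

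**Figure D4:**
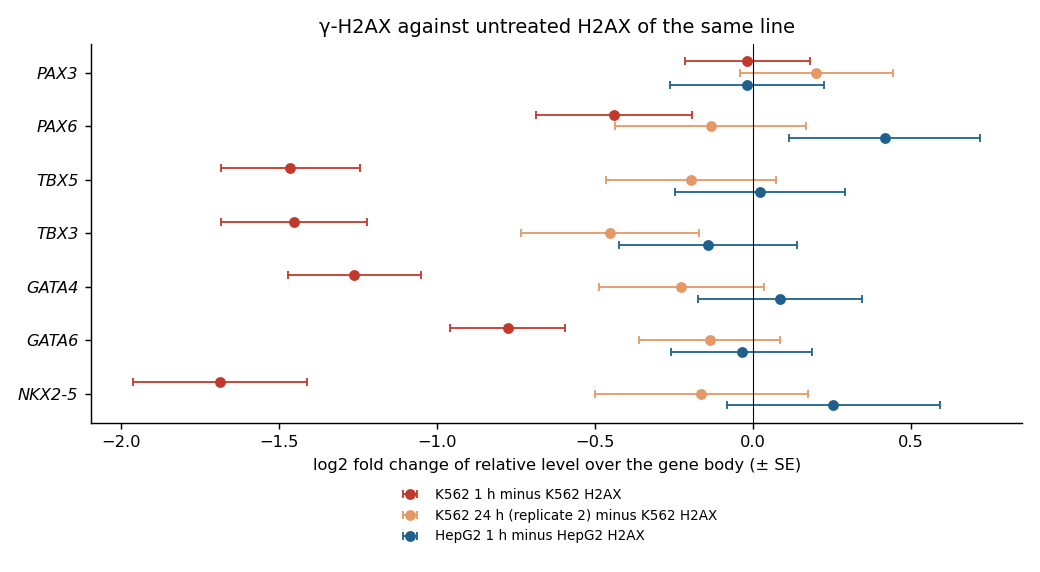
Log2 change (points, with bars of ± SE) of γ-H2AX over untreated H2AX of the same line for each gene: K562 at 1 h (red), K562 at 24 h in replicate 2 (orange) and HepG2 at 1 h (blue). TBX5, TBX3, GATA4, GATA6 and NKX2-5 lie between −1.69 and −0.78 in K562 at 1 h, and all 24 h and HepG2 points lie between −0.45 and 0.42.

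In HepG2 none of the 7 genes was called. HepG2 γ-H2AX at 1 h had 0.795 at TBX5, against 0.813 and 0.752 in HepG2 H2AX, and 0.863 at TBX3, against 0.894 and 1.03. It had 0.923 at GATA4, against 0.877 and 0.857, and 1.02 at GATA6, against 1.11 and 0.992. It had 0.655 at NKX2-5, against 0.749 and 0.388 in HepG2 H2AX, the replicates that were farthest apart. It had 1.48 at PAX3, against 1.43 and 1.58, and 1.02 at PAX6, against 0.770 and 0.733. The HepG2 library lay between the H2AX replicates at TBX5, GATA6, NKX2-5 and PAX3, above both at GATA4 and PAX6 and under both at TBX3. Log2 changes ran from −0.14 at TBX3 to 0.42 at PAX6, none of the 7 genes passed limma at an adjusted or an unadjusted p under 0.05, and no region of the genome was called, with 21655 at an unadjusted p under 0.05. The fit of the compared groups alone called 10621 regions, none of the 7 genes among them. Body over flanks in HepG2 was called at none of the 7 genes or other windows, and PAX6, at 0.61 (limma, adjusted p = 0.43), had an unadjusted p under 0.05. With 1 γ-H2AX library in HepG2, its spread is taken from the groups that have 2.

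The difference between the lines was tested itself, as the K562 change at 1 h minus the HepG2 change. It was −1.94 at NKX2-5 (limma, SE 0.44, adjusted p = 0.0095), −1.49 at TBX5 (SE 0.35, adjusted p = 0.011), −1.35 at GATA4 (SE 0.34, adjusted p = 0.013) and −1.31 at TBX3 (SE 0.36, adjusted p = 0.020). GATA6 (−0.74, adjusted p = 0.069) and PAX6 (−0.86, adjusted p = 0.11) missed the threshold, and PAX3 stood at 0.00 (SE 0.31). The value at NKX2-5 rests on 3 bins, and the 10-kb windows touching it gave smaller ones. In chr5:172650001-172660000 the HepG2 change was −0.85 and the difference between the lines −0.31. In chr5:172660001-172670000 the HepG2 change was 0.17 and the difference −1.10. The 4 of 7 called lower stand beside 19.5% of regions called lower and 28.8% in either direction. Against the flanks, GATA4 (−1.69, adjusted p = 0.0031) and NKX2-5 (−1.85, adjusted p = 0.0054) passed, beside 6.51% of windows called lower and 9.59% in either direction. Without either K562 H2AX replicate, or without HepG2 H2AX replicate 2, no gene was called on the level by limma, at lowest adjusted p-values of 0.059, 0.058 and 0.052. By the same test, without HepG2 H2AX replicate 1 only NKX2-5 was (−2.37, adjusted p = 0.044), and with all 10 libraries none was. Without K562 1 h replicate 1, GATA6 (−0.78, limma adjusted p = 0.0068) and PAX6 (−1.26, adjusted p = 0.00016) passed as well, and without replicate 2 GATA6 did (−0.70, adjusted p = 0.025). Against the flanks GATA6 passed without 1 h replicate 1, at 0.82 (limma, adjusted p = 0.012). GATA4 did not pass against its upstream flank alone (−0.35, limma adjusted p = 0.49), nor did NKX2-5 with flanks of 50 kb (−0.84, adjusted p = 0.30).

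The level in untreated H2AX differed between the lines at PAX3. Its H2AX level was 0.498 and 0.538 in K562, against 1.43 and 1.58 in HepG2, a log2 difference of −1.45 (limma, SE 0.20, adjusted p = 0.00070), and the groups lay far apart. Its flanks differed as much, by −1.38 upstream and −1.52 downstream, and its body over flanks by −0.01. The difference was thus shared by the gene and the 100 kb on either side of it. Read depth also follows DNA copy number, which was not measured, so copy number and chromatin cannot be told apart here. GATA6 had 1.49 and 1.57 in K562 H2AX, against 1.11 and 0.992 in HepG2 H2AX, a difference of 0.52 (limma, SE 0.18, adjusted p = 0.046). That call was lost with no variance trend (limma, adjusted p = 0.058). It was also lost without any of the 4 H2AX libraries, with values of 0.44 to 0.60 and adjusted p-values of 0.13 to 0.27 (limma). Without HepG2 H2AX replicate 1, NKX2-5 was called higher in K562, at 1.09 (limma, adjusted p = 0.046). These 2 of 7 stand beside 30.3% of regions called in either direction, 14.1% higher and 16.2% lower. Over the body against flanks none of the 7 passed limma, beside 0.0492% of windows, and PAX6 had an unadjusted p under 0.05.

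Few of the authors' deposited peaks fell on the genes. The peak lists, called per library, touched 10.8% of 10-kb windows in 1 h replicate 1 and 11.5% in replicate 2. Only 1 peak lay on a gene body, chr18:19769837-19770141 in GATA6 in 1 h replicate 1, with a deposited fold enrichment of 2.79, across the border between chr18:19760001-19770000, which was called lower (−0.80, limma adjusted p = 0.0043), and the next window, which was level with H2AX. None lay on the other 6 genes in any list. The GATA4 downstream flank held 7 peaks in replicate 1 and 11 in replicate 2, the NKX2-5 downstream flank 3 and 5, the NKX2-5 upstream flank 1 and 1, and the PAX6 downstream flank 2 and 0. Their deposited q-values were weak, from 0.073 to 0.44 at GATA4. Only chr5:172583252-172585344, downstream of NKX2-5 in replicate 1, was under 0.05 (peak caller's q = 0.040). How many peaks other 100-kb regions held was not counted. The 24 h lists, with 8 and 13 peaks genome-wide, and the HepG2 list, with 170, held none at these loci. The HepG2 peaks touched only 5 of the 280007 windows of 10 kb, so their absence here carries little information.

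The regions most like the mean of the 7 genes, by Euclidean distance of the log2 levels over 9 libraries, were the 100-kb windows chr5:157400001-157500000 (distance 0.267), chr15:27200001-27300000 (0.295) and chr7:45600001-45700000 (0.313). The first had 0.477 and 0.389 in K562 γ-H2AX at 1 h, 0.962 at 24 h in replicate 2, 0.937 and 0.924 in K562 H2AX and 2.49 for H3K27me3. Of the 7 genes themselves TBX5 was nearest to their mean (0.864) and PAX3 farthest (2.91).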

How the data were processed

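Tracks and peak lists that the authors deposited for CUT&RUN of K562 and HepG2 were analysed. Per the submitters' processing notes the build is hg19 and BWA 0.7.12, SAMtools and MACS2 were used; their settings are not given in the sources used here. The deposited signal is coverage, given for each 1-kb bin as an average depth, and its library means differ, so it was not scaled to depth. The deposited peak lists give a fold enrichment (a ratio), an integer score and, as −log10, a p-value and a q-value for each peak; the score was not used.

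Bins were averaged over 10-kb windows with at least 50% of their bins, chromosome Y left out, over the 7 gene intervals and over their 100-kb flanks, and divided by the library mean. Regions in which the H2AX groups of both lines reached 0.25 were fitted on log2(relative level + 0.05), so fold changes understate the change of regions near 0, with limma 3.58.1 in R 4.3.3 (mean-variance trend, 9 libraries, 6 group means, 3 residual degrees of freedom); all 7 genes passed this filter. Adjusted p under 0.05 was called. Groups with 1 library in the fit take the spread of the others. Fits of the flanks themselves, and against a single flank, were added after the values were seen. On simulated data for the K562 1 h comparison (274243 regions), 30 of 100 regions changed by a log2 of 1 and 0 of 100 changed by 0.5 were recovered, with 3 false calls. No other region was changed there, whereas 55.3% of regions were called in the data. The adjustment was therefore stricter in the simulation, and its recovery does not measure the power of the real comparison. Each gene's 10-kb window with the largest 1 h change was named by rule; further windows were chosen after their values were seen. Other PAX, TBX and GATA genes were not analysed here for want of an hg19 annotation. Strands came from the RefSeq promoter table, and for TBX3, GATA4 and NKX2-5 from general knowledge. RefSeq gene names of GRCh38.p14 gave the neighbours. Replicate numbers did not pair the samples (correlations of 0.017 to 0.068 between groups). Tables were made with pandas 2.3.3, numpy 2.4.6 and scipy 1.17.1 under Python 3.11.15, and plots with matplotlib 3.10.9. The genes and lists were chosen with earlier results of these data known.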

Additional observations from a re-analysis of the deposited data

Results flagged for a closer look

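The change of γ-H2AX at 1 h over H2AX differed between K562 and HepG2 by the test of that difference (limma, adjusted p under 0.05) at 4 of the 7 genes: −1.94 on the log2 scale at NKX2-5, −1.49 at TBX5, −1.35 at GATA4 and −1.31 at TBX3. For the gene body over its flanks it differed at NKX2-5 (−1.85) and GATA4 (−1.69). Over the genome 19.5% of regions were called lower on the level, and 6.51% of windows against their flanks. With all 10 libraries no gene was called. Leaving out any 1 H2AX library lost level calls, as given above. Against its upstream flank alone GATA4 did not pass, nor did NKX2-5 with flanks of 50 kb. In each of the 4 genes both K562 1 h libraries lay under both K562 H2AX libraries, a separation whose share over all regions was not counted. The HepG2 side rests on 1 γ-H2AX library. Over the 10-kb windows touching NKX2-5 the difference was −0.31 in chr5:172650001-172660000 and −1.10 in chr5:172660001-172670000. Step length, 60 bp in the K562 1 h libraries against 41 bp in the HepG2 and H2AX libraries, moved with the K562 1 h group, and its part in the difference was not tested.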

How the results depend on the processing

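The cause of each change given here was not tested unless stated. With all 10 libraries, where the 24 h replicates' spread enters the pooled error, 0 genes were called for K562 1 h over H2AX (5 otherwise), for the K562 minus HepG2 response (4) and for K562 over HepG2 H2AX (2), and 0 for the body over flanks at 1 h (3) and its response (2). A fit of only the groups compared called 0 genes at 24 h over 1 h (5) and 4 for K562 over HepG2 H2AX, where no variance trend left 1. With 24 h replicate 1 in place of replicate 2, 1 gene was called against H2AX on the level and 2 over the flanks (0 each otherwise). Leaving out 1 library gave 0 to 6 genes for the response and 1 to 2 for K562 over HepG2 H2AX. With flanks of 50 kb, 1 gene was called over its flanks for 24 h over 1 h and 1 for the response (2 each), and against the upstream flank alone 1 for the response. Median-of-ratios scaling, which raised H3K27me3 by 1.92 on the log2 scale and shifted the other libraries by −0.27 to −0.11, put its median over the 7 genes at 12.2 in place of 3.24, and body over flanks of H3K27me3 was 1.14 with flanks of 50 kb and 1.85 with 200 kb in place of 1.54.

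With replicate number as a block, 1 gene in place of 2 was called for K562 over HepG2 H2AX and no other count moved; the numbers do not pair the samples. The block turned the sign of uncalled values: PAX6 at 24 h over H2AX (0.0095), PAX3 (0.051), TBX5 (−0.075) and GATA4 (−0.027) in HepG2, and in the response PAX3 (−0.069) and TBX3 over its flanks (0.035).

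Signs also turned as follows, in values that were not called except where stated. For PAX3 at 1 h over H2AX it was 0.084 with median-of-ratios scaling. At 24 h over H2AX, all 10 libraries gave 0.10 at PAX6, 0.17 at TBX5, 0.12 at GATA4 and 0.23 at NKX2-5, and replicate 1 in place of replicate 2 gave 0.34 at PAX6, 0.54 at TBX5, 0.39 at TBX3, 0.47 at GATA4 and 0.61 at NKX2-5. Over flanks at 1 h, PAX6 was −0.31 with 200 kb and −0.36 against the downstream side, TBX3 0.074 with 50 kb and GATA4, otherwise called, 0.038 against the upstream side. Over flanks at 24 h over 1 h, PAX3 was −0.053 with 200 kb, GATA4, otherwise called, −0.020 against the upstream side, and PAX6 0.034 with all 10 libraries, 0.22 with replicate 1 in place, 0.083 with 200 kb and 0.28 against the downstream side. In the response over flanks, PAX3 was 0.014 with 50 kb and 0.028 against the upstream side, and TBX3 0.015 with a pseudocount of 0.2, 0.054 with 50 kb and 0.015 against the downstream side.

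Leaving out 1 library moved values that the main fits did not call across 0. PAX3 at 1 h over H2AX ran from −0.11 to 0.077, and PAX6 at 24 h over 1 h from −0.097 to 0.71. In HepG2, PAX3 ran from −0.089 to 0.048, TBX5 from −0.031 to 0.076, GATA6 from −0.12 to 0.043 and NKX2-5 from −0.18 to 0.69. PAX3 in the response ran from −0.093 to 0.098 and TBX3 for K562 over HepG2 H2AX from −0.060 to 0.13. Over flanks, PAX6 at 1 h ran from −0.082 to 0.13, TBX3 at 1 h from −0.10 to 0.032 and TBX3 in the response from −0.069 to 0.068.

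NKX2-5 spans 3 bins, and HepG2 γ-H2AX and the fitted 24 h group hold 1 library each, so their values are the least precise.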
